A study of Homo sapiens with 6 samples.

Results

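A group of 10 genes that estrogen is known to induce in luminal breast cancer was examined: TFF1, TFF3, AGR2, AGR3, GREB1, PDZK1, CA12, KIAA1324, STC2 and CXCL12. They were chosen by name, as rows of the series table whose gene symbol equals one of these 10, and all 10 were found among 26364 genes. T47D, a human breast cancer cell line that expresses the estrogen and progesterone receptors, was transfected either with a control siRNA (siNC, catalogue number 4390846) or with an siRNA against the transcription factor ELF5 (siELF5, catalogue number AM16708), and RNA was collected 48 h later. Each group held 3 RNA-seq libraries. No group was treated with estrogen or an antiestrogen as far as the labels say, and the sources used here do not give the hormone content of the medium. Each arm rests on 1 siRNA catalogue number, so effects of the target and of the siRNA product cannot be told apart. Whether the replicates were separate cultures is not stated either, so the p-values refer to library-to-library spread, which could be purely technical.

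Estrogen enters the cell and binds estrogen receptor alpha, the product of ESR1, which then binds estrogen response elements in DNA, often together with the pioneer factor FOXA1 and with GATA3. Many of the genes it induces in luminal cells encode secreted proteins, proteins of the secretory pathway or proteins at the cell surface. GREB1, a receptor-bound coregulator, and PDZK1, a cytoplasmic scaffold that holds membrane transporters, are estrogen-induced genes whose products are neither secreted nor surface proteins, so the label of a secretory and surface group covers the other 8 members only. ELF5 is an ETS-family factor of the mammary alveolar lineage.

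Libraries held between 66810743 and 83680984 assigned reads, and each of the 10 genes had at least 412 reads in every library. Values are normalised read counts, that is, reads divided by 1 size factor per library. ELF5 was at 12910.2 to 13225 in siNC and at 3638 to 3725 in siELF5, so the target matched the label in all 6 libraries. All 8 luminal markers were expressed and summed to 652488 to 701713 in siNC and 590729 to 622759 in siELF5. Of these 8, 3 rose and 2 fell (limma adjusted p under 0.05), where 23.8% of all tested genes rose and 23.3% fell. KRT8 was at 232721 to 266064 in siNC and 186745 to 191847 in siELF5 (log2 fold change -0.41, limma adjusted p = 5.75e-06). KRT18 also fell (-0.45), and ESR1, GATA3 and MUC1 rose (0.45, 0.15 and 0.62). After the GC correction MUC1 was at -0.72 (limma adjusted p = 3.25e-06) and KRT19 at -0.31 (limma adjusted p = 1.5e-06). Of the markers of other cell types, those of leukocytes summed to 245 to 254 in siNC and 307 to 363 in siELF5, those of endothelium to 30.4 to 41.5 and 13.7 to 14.5, and basal markers to 346 to 379.5 and 357 to 409. The 7 fibroblast markers summed to 4227 to 5409 and 3383 to 3892, almost all of it COL1A1, and 5 of them were under a mean of 10. The 4 markers of goblet secretory cells summed to 7362 to 9886 in siNC and 11059 to 11283 in siELF5. SPDEF, a factor that luminal breast cells also express, made up nearly all of that sum and rose (log2 fold change 0.39, limma adjusted p = 0.000877; -0.11 after the GC correction). MUC2 was at 53 to 98.2, FCGBP at most 2.02 and ATOH1 at 0 in every library. The part of these markers in the results was not tested. Libraries differed in the measured level of GC-rich transcripts, and the cause was not tested. A library GC score, the median deviation of the most GC-rich 10% of genes minus that of genes of middling GC content, was -0.39 to -0.07 in siNC and 0.22 to 0.28 in siELF5, so this score and the siRNA cannot be told apart. The 10 members had transcript GC contents of 36.4% to 56.1%, and 0 lay in that top 10%, which began at 61.7% and had a median log2 fold change of 0.42.

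After ELF5 knockdown 8 of the 10 genes rose, 1 fell and 1 missed the threshold. KIAA1324, TFF3, PDZK1, CA12, AGR2, TFF1, AGR3 and CXCL12 rose, by 16.4% (CXCL12) to 89.7% (KIAA1324) of the siNC mean. GREB1 fell to 90.8% of it, and STC2 stood at 106% without passing. The median log2 fold change of the 10 was 0.51, against 0.00 over all 16032 genes tested. Calls were frequent everywhere in this comparison. Of all tested genes 47.1% were called (limma adjusted p under 0.05), 23.8% upward and 23.3% downward, and the members' 8 and 1 of 10 are to be read against those shares. All 3 siELF5 values lay above all 3 siNC values for 9 members, a pattern that 27.9% of tested genes showed, and below them for 1 member, as for 28.0% of tested genes. In bulk RNA a rise in the level per cell and a rise in the share of cells that express a gene cannot be told apart. Together the 10 genes took 0.373% to 0.383% of assigned reads in siNC and 0.492% to 0.496% in siELF5.

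**Figure D1:**
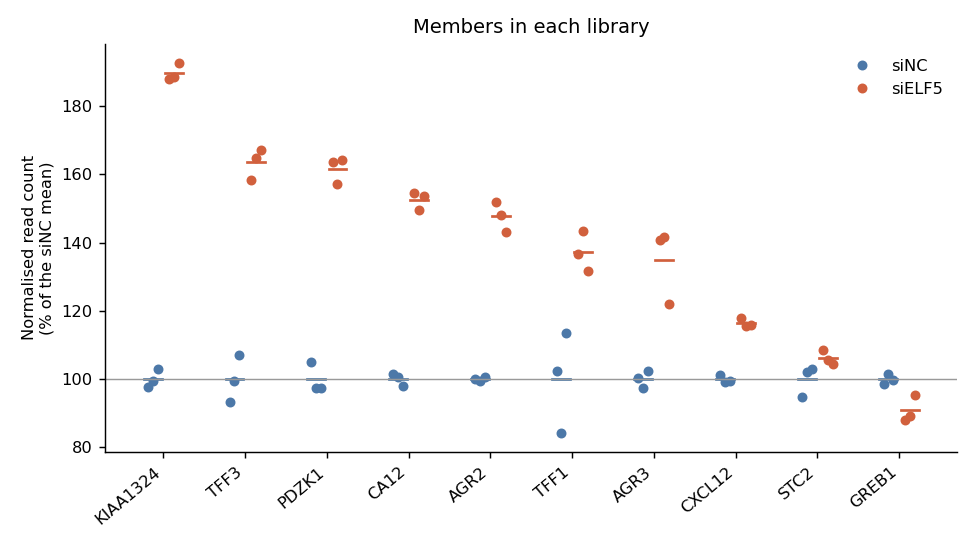
Normalised read count of each member in each of 6 libraries, as a percentage of that gene's siNC mean; points are libraries and short bars are group means. The 3 siELF5 points lie above the 3 siNC points for 9 genes and below them for GREB1.

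When each library's GC score entered the limma fit as a covariate, 6 members rose and 0 fell, where 3.17% of all tested genes rose and 3.98% fell. No member was lower in that fit at an unadjusted p under 0.05 either (0 of 10), while edgeR and DESeq2, run without the covariate, each called 1 lower. KIAA1324, CA12, PDZK1, AGR2, TFF3 and CXCL12 were the 6 that passed. The median standard error over all genes went from 0.063 to 0.151 with this covariate. The score differs between the groups, so it takes up part of the group difference, whether or not that part comes from the siRNA. With a per-library correction for GC content in place of the covariate, 9 members rose, STC2 among them, and 1 fell, where 21.2% of all tested genes rose and 27.5% fell, and the 10 had a median of 0.53.

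**Figure D2:**
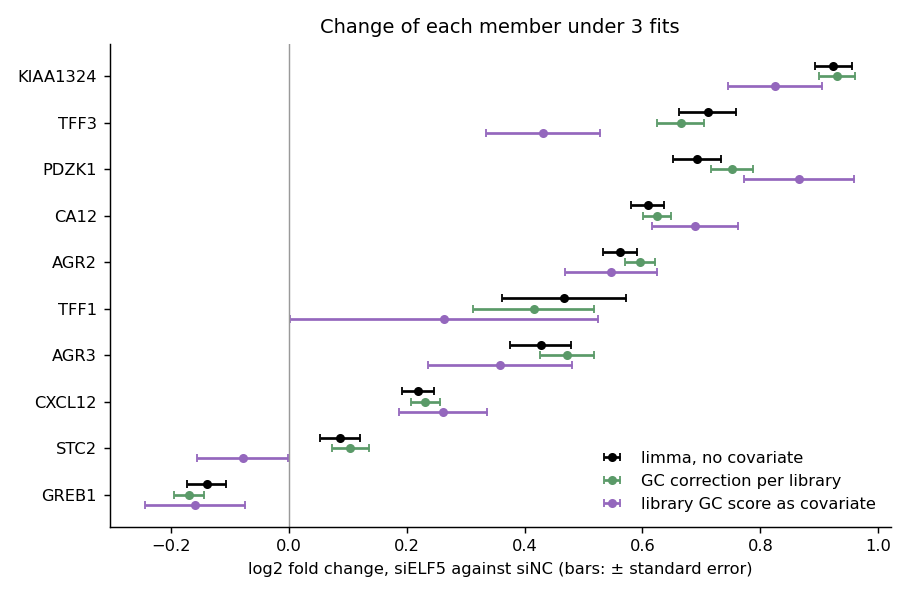
Log2 fold change of each member, siELF5 against siNC, with bars of 1 standard error, from the limma fit without covariates, after the GC correction, and with a GC score covariate. KIAA1324 lies at 0.92, 0.93 and 0.82, whereas STC2 goes from 0.09 and 0.10 to -0.08.

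The trefoil factors are small secreted peptides that protect and restitute mucosal surfaces, and TFF1, also known as pS2, is a classical marker of estrogen action. TFF3 was at 3719, 3959 and 4263 in siNC and at 6302, 6559.8 and 6654 in siELF5. The lowest siELF5 library lay well above the highest siNC library, and the log2 fold change was 0.71 (SE 0.049, limma adjusted p = 1.92e-07). TFF1, the least abundant member, was at 474, 389 and 524 in siNC and at 632, 663 and 609 in siELF5. Its siNC libraries spread widely (462 ± 68.2, SD, n = 3), the groups did not overlap, and the log2 fold change was 0.47 (SE 0.105, limma adjusted p = 0.00284). With the GC score as a covariate TFF1 was at 0.26 (SE 0.261, adjusted p = 0.632), and TFF3 still passed at 0.43 (adjusted p = 0.00928).

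The third trefoil gene, TFF2, lies between TFF3 and TFF1 on chromosome 21 and was close to undetected, with values of 4.6 in siNC replicate 1, 1.96 in siELF5 replicate 2 and 0 in the other 4 libraries. The ratio of TFF3 to TFF1 was 7.85, 10.2 and 8.13 in siNC and 9.97, 9.89 and 10.9 in siELF5. The groups overlapped in this ratio (exact permutation p = 0.3, two-sided, where 0.1 is the smallest p that 3 against 3 allows, so that no ratio can pass the threshold).

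AGR2 and AGR3 are neighbouring genes on chromosome 7 that encode relatives of the protein disulfide isomerases. AGR2 resides in the endoplasmic reticulum, assists the folding of mucins and can also be secreted, and AGR3 is its close relative. AGR2 was at 78593, 78169 and 79201 in siNC and at 119542, 116399 and 112611 in siELF5. It was the most abundant of the 10 genes, its siNC libraries lay within a narrow range, and it rose by 0.56 on the log2 scale (SE 0.029, limma adjusted p = 1.63e-08). AGR3 was at 7465, 7241 and 7605 in siNC and at 10472, 10530.0 and 9064 in siELF5. Replicate 3 of siELF5 was the lowest of its group and still above every siNC library, and AGR3 rose by 0.43 (SE 0.052, limma adjusted p = 2.62e-05). With the GC score as a covariate AGR3 was at 0.36 (adjusted p = 0.0885) and AGR2 at 0.55 (adjusted p = 0.00018).

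The ratio of AGR2 to AGR3 was 10.5, 10.8 and 10.4 in siNC and 11.4, 11.1 and 12.4 in siELF5. The groups did not overlap, with an exact permutation p of 0.1, the smallest possible, and p = 0.125 after adjustment over the 5 ratios tested, so with 3 libraries a group this test cannot pass the threshold.

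The sequence just upstream of the start was examined for the members that have a promoter window, since the estrogen receptor and ETS factors such as ELF5 recognise different short motifs in DNA. RefSeq promoter windows on GRCh38.p14, of which the 250 bases before the annotated start were used, matched 7 members: AGR2, AGR3, PDZK1, CA12, KIAA1324 and CXCL12, which rose, and STC2, which did not pass. TFF1, TFF3 and GREB1 had no window in the table. On both strands 3 motifs were searched: GGTCA, a single arm of the estrogen response element, the full palindrome GGTCANNNTGACC, which contains that arm in both orientations, and GGAAGT, an ETS core with its flank. The single arm GGTCA was found in 4 of the 7 windows (AGR3, PDZK1, CA12 and CXCL12), against 32.6% of all 34788 windows of the same length. The palindrome was in 0 of the 7 and in 0.0402% of all windows, and GGAAGT was in 0 of the 7 and in 19.5% of all windows. The windows of the AGR pair and those of PDZK1 and CA12 are printed 5′ to 3′ on the gene's strand, with GGTCA in either orientation in capitals, because the pair sits side by side and rose together while only 1 of the 2 holds the short motif, and PDZK1 and CA12 are members that rose and hold it.
AGR2, chr7:16805000-16805249, minus strand: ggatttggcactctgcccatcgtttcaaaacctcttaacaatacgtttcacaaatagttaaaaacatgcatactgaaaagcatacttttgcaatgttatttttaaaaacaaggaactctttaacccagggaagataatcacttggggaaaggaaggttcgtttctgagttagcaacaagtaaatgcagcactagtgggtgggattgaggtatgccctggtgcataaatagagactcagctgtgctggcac
AGR3, chr7:16881984-16882233, minus strand: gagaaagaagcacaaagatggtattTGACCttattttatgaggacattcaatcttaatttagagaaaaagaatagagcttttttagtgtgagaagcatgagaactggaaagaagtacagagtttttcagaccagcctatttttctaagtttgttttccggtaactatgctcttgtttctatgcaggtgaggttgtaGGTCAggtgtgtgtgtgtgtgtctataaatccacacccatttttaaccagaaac
PDZK1, chr1:145707401-145707650, minus strand: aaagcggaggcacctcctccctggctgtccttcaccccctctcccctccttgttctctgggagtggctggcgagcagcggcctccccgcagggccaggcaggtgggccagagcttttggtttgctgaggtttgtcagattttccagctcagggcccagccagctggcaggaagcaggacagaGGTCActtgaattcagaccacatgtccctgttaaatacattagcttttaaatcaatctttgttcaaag
CA12, chr15:63381847-63382096, minus strand: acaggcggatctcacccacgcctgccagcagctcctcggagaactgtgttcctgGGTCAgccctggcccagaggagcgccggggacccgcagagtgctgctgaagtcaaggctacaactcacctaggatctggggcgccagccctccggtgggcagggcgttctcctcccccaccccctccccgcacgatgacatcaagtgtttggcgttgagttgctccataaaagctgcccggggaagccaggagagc
In the window of AGR3 the GGTCA matches begin 225 and 54 bases before the start, in that of PDZK1 68 bases and in that of CA12 196 bases before it. AGR2 has no match in its window, and neither has KIAA1324, the member that rose most, nor STC2. A match describes these letters and is not evidence of binding. The absence of a match is not evidence against binding, since other ETS sequences and sites outside the 250 bases were not searched.

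STC2 encodes stanniocalcin-2, a secreted glycoprotein that inhibits the pappalysin proteases PAPPA and PAPPA2 and thereby limits the release of insulin-like growth factor from its binding proteins. It was at 70497, 75923 and 76516 in siNC and at 80640.2, 78483 and 77546 in siELF5. The siELF5 libraries lay above those of siNC by a margin smaller than the spread within siNC, at 0.09 on the log2 scale (limma, SE 0.034, adjusted p = 0.0519). Whether STC2 passed depended on the fit. It passed by DESeq2 on recovered reads (0.09, adjusted p = 0.0494), after the GC correction (0.10, adjusted p = 0.0131) and with siNC replicate 3 left out (0.11, adjusted p = 0.032) or with siELF5 replicate 3 left out (0.10, adjusted p = 0.0399). Leaving out siNC replicate 1, its lowest library, cut the value to 0.05 (adjusted p = 0.236), and leaving out siELF5 replicate 1 gave 0.07 (adjusted p = 0.167). In the authors' deposited table its adjusted p is 0.0463. With the GC score as a covariate its value was -0.08 (adjusted p = 0.628).

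CXCL12 is a secreted chemokine that signals through the receptors CXCR4 and ACKR3. It was at 22501, 22050.0 and 22111 in siNC and at 26175, 25677 and 25773 in siELF5. Both groups were tight and well apart, and CXCL12 rose by 0.22 on the log2 scale (SE 0.027, limma adjusted p = 3.44e-05). CXCL12 is also made by fibroblasts in breast tissue. In these cultures the fibroblast markers DCN, PDGFRA and PDGFRB were at most 14.8 in any library, while COL1A1 was at 3220.4 to 5184 (log2 fold change -0.42, limma adjusted p = 0.00088) and LUM at 108 to 260.1 (-0.84, limma adjusted p = 0.00123). Their part in the level of CXCL12 was not tested.

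CA12 is a carbonic anhydrase anchored in the plasma membrane with its catalytic domain outside the cell, where it hydrates carbon dioxide. It was at 43313, 42929.6 and 41885 in siNC and at 65967, 63819 and 65621 in siELF5. Each group stayed within a narrow band, the bands were far apart, and the log2 fold change was 0.61 (SE 0.028, limma adjusted p = 5.98e-09).

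KIAA1324, now named ELAPOR1, encodes a transmembrane protein of the endosomal and lysosomal compartment and cell surface, also known as estrogen-induced gene 121. It was at 9400.4, 9577 and 9902 in siNC and at 18082, 18149.6 and 18551 in siELF5. No other member rose as far. The log2 fold change was 0.92 (SE 0.032, limma adjusted p = 7.55e-10), a larger absolute change than 94.4% of the tested genes had. Exons of C1orf194, on the opposite strand, cover 1.92% of the exons of KIAA1324 in GENCODE 29. C1orf194 was at 62.1 to 98.2 in all libraries.

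PDZK1 was at 4838, 4487 and 4493 in siNC and at 7528, 7235 and 7559 in siELF5. The groups were far apart, and PDZK1 rose by 0.69 on the log2 scale (SE 0.04, limma adjusted p = 5.18e-08). Its pseudogene copy PDZK1P1 was counted at 3526 ± 82.1 in siNC and 5589 ± 311 in siELF5 (SD, n = 3) and rose by 0.66 (SE 0.045, limma adjusted p = 1.93e-07). The sources used here do not say how reads shared by near-identical copies were assigned. The level of PDZK1 is therefore uncertain, and the values of the pair cannot be taken as independent.

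GREB1, among the most strongly estrogen-induced genes of breast cancer cells, went the other way. It was at 45601, 47069.6 and 46261 in siNC and at 40771, 41309.5 and 44113 in siELF5. All siELF5 libraries lay below all siNC libraries, although replicate 3 came close, and GREB1 fell by 0.14 on the log2 scale (SE 0.033, limma adjusted p = 0.00386). This small decrease lost its call with quantile scaling (-0.08, adjusted p = 0.0509), without a variance trend (adjusted p = 0.0508) and with the GC score as a covariate (-0.16, adjusted p = 0.308). Its sign was negative in each of the 19 alternatives run.

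Per length of the longest GENCODE 29 transcript, the levels spanned a wide range. AGR2 led with 44237 ± 292 normalised read counts per kb in siNC (SD, n = 3), followed by STC2 (13882 ± 619.6), AGR3 (9929 ± 245), CA12 (6659.8 ± 115), CXCL12 (6291 ± 69.3), GREB1 (5459 ± 86.7), TFF3 (3589 ± 246), PDZK1 (2065 ± 90.1), KIAA1324 (1613 ± 42.7) and TFF1 (839 ± 124). Neighbours in this order were further apart than the larger of their SDs. In siELF5, TFF3 (5866 ± 164) stood above GREB1 (4958 ± 212), the reverse of their siNC order, and PDZK1 (3337 ± 80.2) and KIAA1324 (3059.8 ± 42.4) had drawn close. Transcript lengths are those of the annotation, since the isoform in use was not measured.

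**Figure D3:**
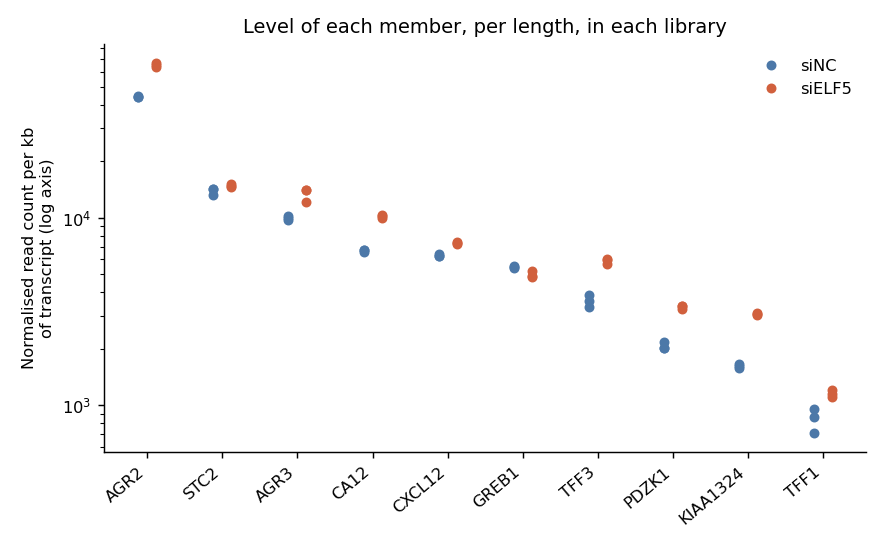
Normalised read count per kb of the longest GENCODE 29 transcript, on a log axis, for each member in each library. In siNC the members span from 839 (TFF1) to 44237 (AGR2) per kb on average, and TFF3 and GREB1 change places in siELF5.

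In the whole table, 3 genes with a mean of at least 100 followed the 6-library profile of KIAA1324, the member with the smallest adjusted p, most closely. These were WDFY1, FLJ23867 and ZCCHC24, out of 12851 genes searched. The root mean square difference of their centred log2 values from those of KIAA1324 was 0.028, 0.028 and 0.035, and their log2 fold changes were 0.95, 0.97 and 0.92. With 2 groups this measure reflects mainly the size of the group difference.

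Of 16 genes for the receptor and its cofactors 9 rose and 4 fell, where 23.8% of all tested genes rose and 23.3% fell, and their median was 0.14 on the log2 scale, against 0.00 over all tested genes. ESR1 was at 15850.1, 16158 and 15948 in siNC and at 21773, 21754 and 21939 in siELF5, and rose by 0.45 (SE 0.028, limma adjusted p = 7.88e-08). PGR, the progesterone receptor gene and itself induced by estrogen, was at 81189.9 to 83567 in siNC and 93281 to 97902 in siELF5, and rose by 0.22 (limma adjusted p = 4.28e-05). FOXA1 rose by 0.31, as did NRIP1, an estrogen-induced corepressor. NCOA3, a coactivator of nuclear receptors, fell by 0.24, and TFAP2C, an AP-2 family member, fell by 0.36. With the GC score covariate 2 of the 16 rose, ESR1 at 0.44 (adjusted p = 0.00112) and NRIP1, and 1 fell, TFAP2C, while PGR was at 0.24 (adjusted p = 0.0651) and FOXA1 at 0.16 (adjusted p = 0.329).

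Other estrogen-induced genes gave a mixed picture. Of 40 such genes, 19 rose, 12 fell and 9 did not pass, where 23.8% of all tested genes rose and 23.3% fell, and their median was 0.13 on the log2 scale. Whether the 12 decreases in this list and the 8 increases among the members are related was not tested. SERPINA1, alpha-1-antitrypsin, was at 6719 to 6740.5 in siNC and 14939.8 to 15049.7 in siELF5 (log2 fold change 1.15), and IGFBP4, a secreted binding protein of insulin-like growth factors, rose by 0.60. P2RY2, a receptor for extracellular nucleotides, fell by 0.77, OLFM1, a secreted glycoprotein, by 0.70 and THBS1, the matrix protein thrombospondin-1, by 0.51. After the GC correction 17 of the 40 rose and 13 fell, with a median of 0.05. The GC score covariate left 7 that rose and 8 that fell, at a median of 0.03, against 3.17% and 3.98% of all tested genes. IGFBP4 is GC-rich (62.5%). It was at 0.27 after the GC correction (limma adjusted p = 3.37e-05) and at 0.52 with the GC score covariate (limma adjusted p = 0.000269), and passed in both.

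Of 4 genes that estrogen is known to repress, 2 fell and 1 rose, where 23.3% of all tested genes fell and 23.8% rose. BTG2, the remaining gene, did not pass (0.11 on the log2 scale, limma adjusted p = 0.207). CCNG2, an unconventional cyclin of growth-arrested cells, was at 7022 to 7612 in siNC and 3772 to 4292 in siELF5 and fell by 0.87 on the log2 scale (SE 0.051, limma adjusted p = 5.61e-08). ERBB2, the gene of the HER2 receptor, was at 15060.1 to 16316 and 9572 to 10528 and fell by 0.65 (SE 0.041, limma adjusted p = 9.13e-08). TGFB3, a TGF-beta ligand, rose by 0.11 (limma adjusted p = 0.02). It no longer passed when siNC replicate 3 was left out (0.09, adjusted p = 0.0754), when siELF5 replicate 1 was left out (0.11, adjusted p = 0.0531) or when siELF5 replicate 3 was left out (0.08, adjusted p = 0.058).

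**Figure D4:**
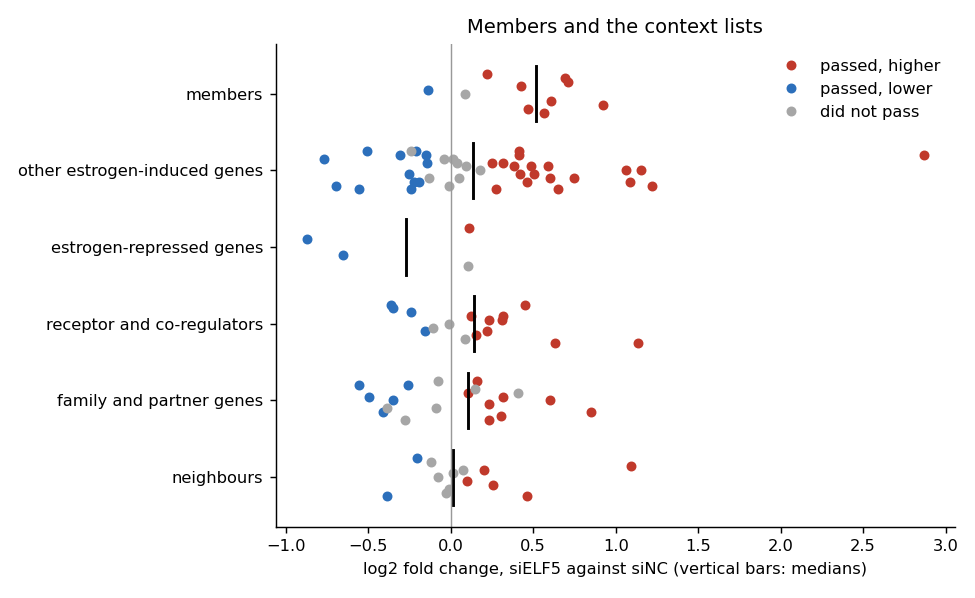
Log2 fold changes, siELF5 against siNC, of the 10 members and of the tested genes of 5 context lists; each point is a gene, coloured by its limma call, and vertical bars are list medians. The members' median is 0.51, that of the 40 other estrogen-induced genes 0.13 with points on both sides of 0.

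Among 26 relatives and partners of the members, 19 were tested, of which 8 rose and 5 fell, against 23.8% and 23.3% of all tested genes, with a median of 0.10. SLC9A3R1 is also in the list of other estrogen-induced genes, so its rise counts in both lists. The disulfide isomerases related to AGR2 and AGR3 rose. TXNDC12, the third gene of the AGR family, was at 3971 to 4179.9 in siNC and 6039 to 6335 in siELF5 (log2 fold change 0.60, limma adjusted p = 1.03e-07), and P4HB, PDIA4, PDIA3 and PDIA6 rose by 0.31, 0.23, 0.23 and 0.10. Of these 5, only TXNDC12 still passed with the GC score as a covariate (0.61, adjusted p = 0.000656). PDIA6 no longer passed when siNC replicate 2 or 3 was left out (adjusted p = 0.106 and 0.0948) or siELF5 replicate 1 or 2 (adjusted p = 0.0956 and 0.0765). DAG1, the dystroglycan gene and a reported partner of the AGR proteins, fell by 0.50 (limma adjusted p = 8.4e-08), and LYPD3, another, fell by 0.35.

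The listed paralogs of KIAA1324, STC2 and GREB1 fell, where 23.3% of all tested genes fell. Those of STC2 and GREB1 were named after their values were seen, and TXNDC12, a relative of AGR2 and AGR3, rose. KIAA1324L, the paralog of KIAA1324, was at 896, 934 and 908 in siNC and at 659, 609 and 595 in siELF5 and fell by 0.56 (SE 0.071, limma adjusted p = 4e-05). The ratio of KIAA1324 to KIAA1324L was 10.3 to 10.9 in siNC and 27.4 to 31.2 in siELF5 (exact permutation p = 0.1, the smallest possible; 0.125 after adjustment). STC1, the paralog of STC2, fell by 0.26 (limma adjusted p = 0.00274), and the ratio of STC2 to STC1 was 35.3 to 39.7 in siNC and 45 to 52.6 in siELF5 (exact permutation p = 0.1). GREB1L, the paralog of GREB1, fell by 0.41 (limma adjusted p = 0.00062), in the same direction as GREB1. With the GC score covariate these 3 paralogs missed the threshold (adjusted p = 0.0792, 0.432 and 0.408).

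Of the scaffolds related to PDZK1, SLC9A3R1 rose by 0.32 and SLC9A3R2 by 0.85, but their transcripts have a GC content of 61.5% and 67.4%, and neither passed after the GC correction (0.05 and 0.07). The ratio of PDZK1 to SLC9A3R1 was 0.0932 to 0.109 in siNC and 0.12 to 0.14 in siELF5 (exact permutation p = 0.1). Of the other carbonic anhydrase genes, CA9, CA13 and CA14 did not pass (log2 fold changes -0.09, -0.28 and 0.41), and CA2 and CA4 were at most 2.05 in any library. CA13 passed with quantile scaling (-0.43, adjusted p = 0.019) and with siELF5 replicate 1 left out (-0.39, adjusted p = 0.0422), but was at -0.15 with siELF5 replicate 2 left out, and CA14 passed without a variance trend (adjusted p = 0.0201). CXCR4, the receptor of CXCL12, was at 227 to 259 in siNC and 208 to 263 in siELF5 (log2 fold change -0.08, adjusted p = 0.647), and ACKR3 and DPP4, a protease that cleaves CXCL12, were under a mean of 10. PAPPA did not pass (adjusted p = 0.699) and PAPPA2 was at most 5.53.

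The genes next to the members on the chromosome were examined as well. For each member the protein-coding gene with the nearest start on either side was taken from RefSeq's GRCh38.p14 gene order, which gave 17 genes outside the member list, 13 of them tested. Of these, 5 rose and 2 fell, with a median of 0.02, so 7 of 13 passed, near the 47.1% of all tested genes that did. TMPRSS3, a transmembrane serine protease gene next to TFF1, was at 243, 236 and 195 in siNC and at 471, 443 and 523 in siELF5 and rose by 1.09 (SE 0.115, limma adjusted p = 8.5e-06). ABCG1, a cholesterol exporter gene next to TFF3, rose by 0.46 (limma adjusted p = 0.000112), and these are the outer neighbours of the trefoil genes on chromosome 21. With the GC score as a covariate TMPRSS3 was at 1.57 (adjusted p = 0.0014) and ABCG1 at 0.19 (adjusted p = 0.549).

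On both sides of the AGR pair the changes were smaller, with TSPAN13 at 0.10 (limma adjusted p = 0.0133) and AHR, the aryl hydrocarbon receptor gene, at 0.20 (limma adjusted p = 0.00192). TSPAN13 no longer passed when siNC replicate 2 was left out (0.09, adjusted p = 0.0796) or when siELF5 replicate 2 was left out (0.08, adjusted p = 0.059). The neighbours of CA12 went in opposite directions, with APH1B at 0.26 and USP3 at -0.38. None of the neighbours of KIAA1324 (C1orf194 and SARS), of PDZK1 (GPR89A and CD160) or of CXCL12 (ZNF32) passed the test, nor did E2F6 beside GREB1, and BOD1 beside STC2 fell by 0.20 (limma adjusted p = 0.00092).

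**Figure D5:**
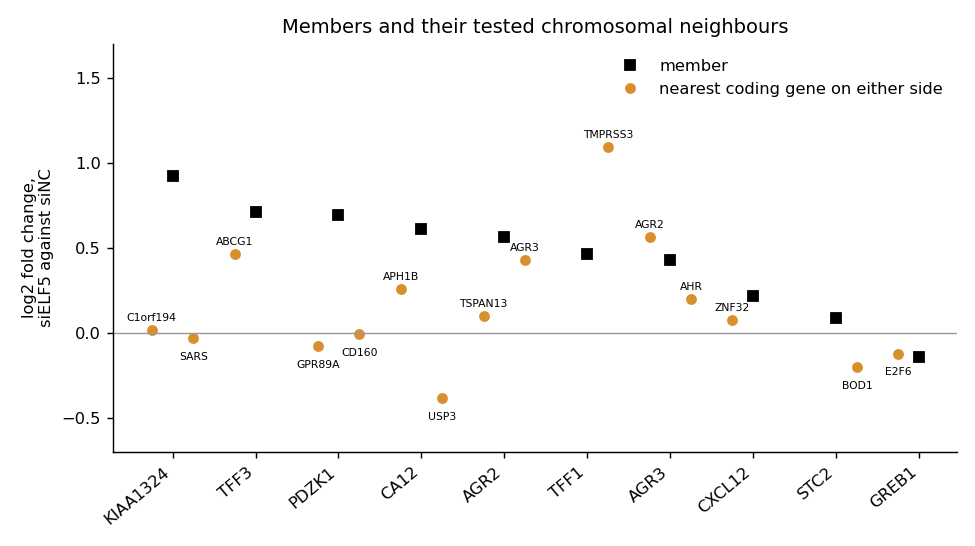
Log2 fold changes, siELF5 against siNC, of each member (squares) and of its tested protein-coding neighbours (circles, drawn left and right of the member by chromosomal order). TMPRSS3 (1.09) lies above TFF1, its neighbour, whereas the neighbours of KIAA1324 and PDZK1 lie near 0.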

How the data were processed

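RNA-seq libraries of 3 siNC and 3 siELF5 samples were prepared by the TruSeq RNA protocol (kit v2, per the labels). The build hg19 and the tools STAR 2.6, Subread, featureCounts 1.6.3 and DESeq2 1.22.1 are named in the submitters' processing notes, and no settings are given in the sources used here. The per-library values and their mean are deposited signal values, which their spacing shows to be counts divided by a size factor (100% of non-zero values whole within a tolerance of 1e-06). The deposited log2 fold changes, p-values and test score are the authors' own results and entered no test.

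Samples were grouped by title. Genes with a mean of at least 10 (16032 of 26364) were tested on log2(value + 1), a scale that understates the change of low genes, with limma 3.58.1 (R 4.3.3, variance trend on mean level, two-sided, no covariates), and p-values were adjusted over all tested genes (Benjamini-Hochberg) at 0.05. Replicate pairs differed by more than sampling noise (chi-square per degree of freedom 4.37 to 12). Alternatives were 2 other pseudocounts, 2 other filters, 2 other scalings, no trend, a replicate block, GC settings, each library left out, and edgeR 4.0.16 and DESeq2 1.42.0 on recovered reads. For GC content and length the longest transcript per symbol in GENCODE 29 was used (93.1% of tested genes), and the GC correction subtracts a loess curve (span 0.3) per library. The reference is GRCh38, so it gave names, lengths, gene order and promoter sequence only. The limma script was tested on simulated data.

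The members, lists and tests were chosen with earlier results of these data known. Named were all members, ELF5, ESR1, PGR, up to 5 genes of each list with the smallest adjusted p among those past the threshold, the members' neighbours, and the 3 genes closest to the leading member's profile. Other genes were named after their values were seen.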

Additional observations from a re-analysis of the deposited data

How the results depend on the processing

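Each of the 19 alternatives was run for the members and the context lists. KIAA1324, TFF3, PDZK1, CA12, AGR2 and CXCL12 passed upward in all of them, with log2 fold changes of 0.82 to 0.96, 0.43 to 0.76, 0.67 to 0.87, 0.59 to 0.69, 0.54 to 0.63 and 0.21 to 0.26, and TFF1 and AGR3 in all but the fit with the GC score covariate. Between 6 and 9 members rose, and 8 or 9 on leaving out single libraries. The limma count of fallen members was 0 with quantile scaling, without a variance trend and with the GC score, where GREB1 had an unadjusted p under 0.05 in the first 2 settings (count of 1) and not in the third (count of 0); edgeR and DESeq2 each called 1. STC2 reached 0.12 with equal column totals (adjusted p = 0.00912) and 0.13 with quantile scaling (adjusted p = 0.00777), and -0.08 with the GC score, where the cause was not tested.

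The GC score covariate gave 1147 called genes in place of 7559, and leaving out single libraries gave 6167 to 7324. Of the 19 relatives and partners, SLC9A3R2 was at -0.13 under that covariate, its cause not tested. Under it the receptor list had 2 higher and 1 lower, the other estrogen-induced genes 7 higher, the relatives and partners 1 higher and 1 lower, and the neighbours 1 higher and 1 lower. Of the estrogen-repressed genes 0 rose under it and without a variance trend, and 0 to 1 on leaving out single libraries, while 2 fell throughout. The replicate numbers are not shown to pair the libraries, since same-numbered libraries had correlations of 0.01, -0.03 and -0.06 between their deviations from the group means and not every library correlated best with its own number. With a replicate block 7174 genes were called, 8 members rose and 1 fell, and no member's call changed. Depth limits only low genes such as TFF2, CA2, CA4 and PAPPA2.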
